A study of Homo sapiens with 10 samples.

Results

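DBTRG-05MG, an established human glioblastoma cell line, was compared between the ends of a treatment course: the library taken after 48 h of 1 mM dbcAMP and the library taken at 0 h. Dibutyryl cyclic AMP (dbcAMP) is a cell-permeable analogue of cyclic AMP. A gene entered the comparison when its mean over the 5 DBTRG-05MG libraries (0, 6, 12, 24 and 48 h) was at least 1 FPKM, a unit of fragments scaled to transcript length and library size. This rule kept 12424 of the 20379 genes of the deposited table, and the comparison uses 2 of the 10 libraries of the study. The change of a gene is log2 of the ratio of (FPKM + 1) at 48 h to that at 0 h, which understates the change of genes near 1 FPKM. Just inside the filter lay CLEC7A (1.61, 0.402, 1.00, 1.07 and 0.928 FPKM at the 5 times) and CAND2 (1.33, 0.741, 0.992, 0.963 and 0.989 FPKM), and just outside it B3GALT5 (1.18, 0.574, 1.13, 1.13 and 0.993 FPKM) and CSPG4 (1.39, 0.967, 0.794, 0.871 and 0.981 FPKM).

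The study followed DBTRG-05MG and U87, a second established human glioblastoma line, at 0, 6, 12, 24 and 48 h of dbcAMP, by sequencing of poly(A) RNA. The labels call every library a 1 mM dbcAMP library of its time point, name no genetic change, and put 1 library in each group, so the endpoint has a size and no test. No untreated library of a later time was analysed here, so treatment and time in culture cannot be told apart. Relative depth was estimated from ratios to the DBTRG-05MG 0 h library, over genes above 0 and under 0.15 FPKM in both. With the depth of that library set to 100%, the 48 h library stood at 106.7% and the deepest of the study at 116.8%. At 0 h 3500 genes and at 48 h 3047 had no signal, which means not detectable at this depth.

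Defining markers were read before the comparison. Mesenchymal markers were abundant at 0 h, with vimentin (VIM) at 2072 FPKM and the hyaluronan receptor CD44 at 545 FPKM. Of 17 glioma stem markers 10 passed the filter and 7 lay below it. Among those that passed, SOX2 stood at 36.6 FPKM and NES at 45.5 FPKM at 0 h. The astrocyte markers GFAP, AQP4, S100B and ALDH1L1 were all under 1 FPKM at both 0 and 48 h, and GFAP was at 0.224, 0.109, 0.176, 0.508 and 0.393 FPKM over the course. Other astrocyte markers were expressed. Of the 15 listed, 9 passed the filter, GJA1 among them, and the astrocyte list summed to 289 FPKM at 0 h and 331 at 48 h. Of 15 immune markers 2 passed the filter, CD68, a lysosomal protein of macrophages that other cells also express, at 101 and 113 FPKM, and FCER1G, a receptor subunit, at 3.24 and 0.715 FPKM, and the list summed to 106 FPKM at 0 h and 115 at 48 h. PTPRC was at 0 and 0.0285 FPKM at the 2 times and AIF1 at 0 in both, and of 9 endothelial markers ESAM alone passed, at 7.24 and 4.41 FPKM, with PECAM1 at 0 and 0.0237 FPKM. Of 11 epithelial and keratin markers 5 passed the filter, and that list summed to 317 FPKM at 0 h and 461 at 48 h. In bulk RNA, fewer cells of a kind and less RNA per cell cannot be told apart.

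Cyclic AMP activates protein kinase A, which phosphorylates the transcription factor CREB. CREB binds the cyclic AMP response element (CRE) and induces a first set of genes within hours, several of which (phosphodiesterases, phosphatases, SIK1) dampen the signal again. In glial tumour cells a lasting rise of cyclic AMP is known for slower division and a change of cell shape. Division genes themselves are switched in groups: E2F sites mark many promoters of DNA replication genes, and the CHR element with CCAAT boxes marks many promoters of mitotic genes.

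The promoters of 6 genes show these elements beside the direction of the gene at 48 h. They come from RefSeq (GRCh38.p14), each 250 bases before to 50 after the first listed start of the gene, written 5′ to 3′ on the strand of the gene. Capitals mark every match, on either strand, of the searched letters: TGACGTCA (full CRE), TTTCGCGC and TTTGGCGC (E2F), TTTGAA (the CHR, or cell cycle genes homology region), CCAAT (the box of that name), TGATGNAA (CARE, the element bound by ATF4) and TGACNNNGC (the core of the antioxidant response element); adjoining matches run together. DUSP1 and PCSK1 were higher at 48 h and hold a full CRE. CCNA2 was lower and holds the same CRE letters with a CCAAT box, PLK1 and CDCA3 were lower and hold a CHR with a CCAAT box, and E2F1 was lower and holds an E2F match. The CHR letters also stand in DUSP1 and PCSK1, so they are not limited to genes that were lower.
DUSP1: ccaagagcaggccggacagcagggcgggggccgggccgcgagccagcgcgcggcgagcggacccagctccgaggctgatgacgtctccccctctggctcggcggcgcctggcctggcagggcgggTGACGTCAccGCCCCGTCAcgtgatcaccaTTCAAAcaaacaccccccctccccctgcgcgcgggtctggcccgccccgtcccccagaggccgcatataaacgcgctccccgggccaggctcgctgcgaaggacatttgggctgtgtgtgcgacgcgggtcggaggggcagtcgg
PCSK1: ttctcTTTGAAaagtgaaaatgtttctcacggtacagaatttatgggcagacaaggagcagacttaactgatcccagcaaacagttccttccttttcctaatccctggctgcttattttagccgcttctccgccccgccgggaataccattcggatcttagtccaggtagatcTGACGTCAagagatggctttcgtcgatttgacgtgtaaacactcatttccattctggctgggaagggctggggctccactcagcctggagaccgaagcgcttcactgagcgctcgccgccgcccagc
CCNA2: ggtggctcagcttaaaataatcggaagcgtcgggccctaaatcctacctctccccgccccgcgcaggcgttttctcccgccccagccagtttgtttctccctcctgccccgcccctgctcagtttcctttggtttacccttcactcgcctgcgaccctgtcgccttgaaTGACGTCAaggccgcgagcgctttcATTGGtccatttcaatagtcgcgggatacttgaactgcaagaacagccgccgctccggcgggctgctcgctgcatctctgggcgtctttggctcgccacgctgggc
PLK1: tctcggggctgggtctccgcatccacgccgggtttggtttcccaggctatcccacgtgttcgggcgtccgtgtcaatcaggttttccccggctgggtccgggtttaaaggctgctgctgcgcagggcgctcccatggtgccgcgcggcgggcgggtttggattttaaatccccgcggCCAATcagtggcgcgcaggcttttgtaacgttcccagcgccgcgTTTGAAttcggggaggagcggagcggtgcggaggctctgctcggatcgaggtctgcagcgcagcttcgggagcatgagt
CDCA3: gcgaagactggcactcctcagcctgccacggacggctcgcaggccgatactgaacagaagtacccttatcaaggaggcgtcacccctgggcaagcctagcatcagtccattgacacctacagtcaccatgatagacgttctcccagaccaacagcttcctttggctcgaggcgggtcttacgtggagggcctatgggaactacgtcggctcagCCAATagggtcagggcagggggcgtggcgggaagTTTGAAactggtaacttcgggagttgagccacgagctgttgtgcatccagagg
E2F1: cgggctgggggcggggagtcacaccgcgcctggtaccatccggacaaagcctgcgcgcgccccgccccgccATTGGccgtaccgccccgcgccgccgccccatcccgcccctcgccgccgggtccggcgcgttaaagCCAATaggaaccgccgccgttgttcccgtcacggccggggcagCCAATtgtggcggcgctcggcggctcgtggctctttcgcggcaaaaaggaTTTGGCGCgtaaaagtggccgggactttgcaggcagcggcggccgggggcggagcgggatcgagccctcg

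The 6 lie at chr5:172771146-172771445 (minus strand), chr5:96433199-96433498 (minus), chr4:121823834-121824133 (minus), chr16:23678639-23678938 (plus), chr12:6851237-6851536 (minus) and chr20:33686336-33686635 (minus). A match of letters is a description and no binding site. A full CRE stood in promoters of both directions among the genes described here, since EXO1 and XRCC2, lower at 48 h, hold one as well.

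At 48 h, 593 genes were at least 2-fold higher than at 0 h (4.77% of those measured) and 650 were at least 2-fold lower (5.23%). At least 4-fold were 78 higher and 87 lower genes, and at least 8-fold 12 and 4. The median change of all genes was 0.03 (log2), with quartiles of -0.31 and 0.36, and 11181 genes stayed within 2-fold. The earlier libraries, set against the same 0 h library, had 149 higher and 111 lower genes at 6 h, 305 and 214 at 12 h, and 414 and 214 at 24 h. Counts of list members below are to be read against 4.77% and 5.23%.

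**Figure D1:**
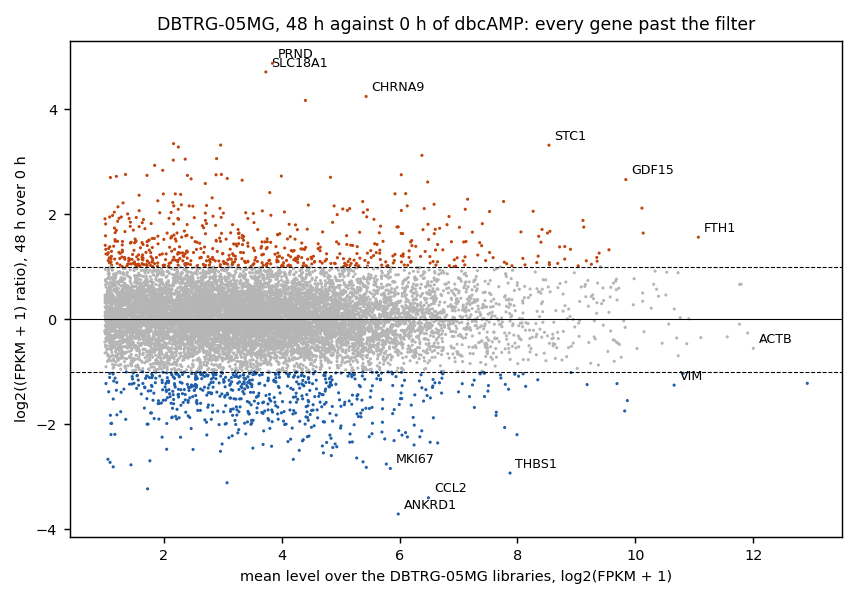
Mean level of each gene over the 5 DBTRG-05MG libraries, log2(FPKM + 1), against its change from 0 to 48 h, log2((FPKM + 1) ratio). Each point is 1 gene, dashed lines mark 2-fold, orange points are at least 2-fold higher and blue points at least 2-fold lower. Orange and blue points span the range of levels, and PRND and ANKRD1 lie at the ends of the named genes.

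The test made within the line was whether a gene had a straight-line slope over the 5 time points that differed from 0. It was made with limma, as the slope of log2(FPKM + 1) over the rank of time. Such a test can miss steps and peaks. A step can also pass it, as in PRND below, so a called gene need not have moved steadily. The spread behind it is the scatter of single libraries around a straight course, shared with U87, with 6 residual degrees of freedom and a median SD of 0.25. After Benjamini-Hochberg adjustment, 129 genes rose (1.04%) and 89 fell (0.716%), and 123 and 87 of these were also at least 2-fold higher or lower at 48 h. Before adjustment, 2366 genes had a p under 0.05. The counts rest on single libraries: without the DBTRG-05MG 48 h library 24 rose and 8 fell, and without the U87 24 h library 249 and 171. Of the 129 rising and 89 falling genes, 77 and 44 had a mean under 1 FPKM in U87, where values near 0 lower the shared spread. In the DBTRG-05MG libraries alone 92 and 75 of them were called, 44 and 34 of those low in U87. Below, "rose" and "fell" are kept for genes with an adjusted limma p under 0.05, and all other changes are sizes between single libraries. Of the 62 called genes that are named or listed here, 7 were called in every setting that gave a value (CACNG4, CEBPB, NAV3, SCARA5, SLC18A1, TGM3 and ZNF488), 15 with a pseudocount of 0.1 FPKM and 11 without the 48 h library. CACNG4, SCARA5, SLC18A1, TGM3 and ZNF488 were at or near 0 in every U87 library, so every setting that kept U87 shares their lowered spread. S100A8, ADM2, CBR1, LCP1, SPARC, STMN2 and MYRF were not called in the DBTRG-05MG libraries alone, with adjusted p between 0.0548 and 0.0689. Levels are listed in the order 0, 6, 12, 24 and 48 h.

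Among genes that reached 10 FPKM at 0 or 48 h, the largest gain was that of PRND, which encodes doppel, a relative of the prion protein (chr20:4721910-4728460). It stood at 0.623, 0.359, 1.55, 17.6 and 46.6 FPKM, a change of 4.88 (log2; adjusted p of the slope 0.00761). Its level was low through 12 h and high in the last 2 libraries. SLC18A1, the vesicular monoamine transporter VMAT1, rose from the first step on, at 0.534, 1.82, 4.25, 15.7 and 39.1 FPKM (4.71, adjusted p 5.46e-05). CHRNA9, the alpha-9 subunit of the nicotinic acetylcholine receptor (chr4:40335329-40355217), stood at 3.02, 25.2, 49.8, 57.8 and 75.2 FPKM (4.24, adjusted p 0.0234). On the (FPKM + 1) scale these 3 genes ended 29.4-, 26.2- and 18.9-fold higher. RASL11A, a small RAS-like protein, rose from 2.41 to 60.3 FPKM, PHOSPHO1, a phosphatase of mineralising cells, from 1.04 to 19.3, and S100A8, a calcium-binding protein best known from myeloid cells, from 0.431 to 13.5.

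Genes already well expressed at 0 h were also among the highest gains. STC1, the secreted glycoprotein stanniocalcin-1, stood at 73.1, 188, 323, 528 and 736 FPKM, higher in every library than in the one before (3.31, adjusted p 0.0260). SCG2, the granule protein secretogranin II, stood at 93.2, 89.8, 141, 313 and 444 FPKM (2.24, adjusted p 0.0115). CD55, which protects cells from complement, stood at 13.7, 60.1, 71.3, 139 and 127 FPKM, and its slope did not pass the test (adjusted p 0.0598). GDF15, a stress-induced cytokine, stayed near its first level through 12 h and was high at 24 and 48 h, at 359, 391, 391, 1153 and 2276 FPKM (2.66, adjusted p 0.111). Measured in FPKM rather than in ratio, the largest gains were those of FTH1 (1504 to 4440.4 FPKM), the ferritin heavy chain, and GDF15. S100A6 (440.2 to 1911), RPL27 (642 to 2001) and IFI6 (3156 to 5008) were also among the 10 largest gains.

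At the other end stood ANKRD1, a nuclear ankyrin-repeat protein known as a target of YAP (chr10:90912096-90921276). It fell through 131, 121, 29.6, 19.4 and 9.04 FPKM (-3.71, adjusted p 0.00290), with the first large drop between 6 and 12 h. CCL2, the chemokine that draws monocytes (chr17:34255218-34257203), fell through 192, 162, 50.3, 22.7 and 17.2 FPKM (-3.40, adjusted p 0.00414). MEST, an imprinted gene, fell through 76.00, 69.2, 41.8, 14.4 and 9.86 FPKM (-2.83, adjusted p 0.0103). THBS1, the matrix glycoprotein thrombospondin-1, was highest at 6 h and lowest at 48 h, at 265, 459, 325, 84.5 and 33.8 FPKM (-2.93, adjusted p 0.197). Of the 20 genes with the lowest ratio, most were division genes, taken up below.

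The largest losses in FPKM were in abundant RNAs. BCYRN1, a noncoding RNA known from brain, stood at 13862, 12954, 2361, 3522 and 5932 FPKM, with its lowest level at 12 h. It resembles Alu repeats, so its counts may be shared with copies and are uncertain. ACTB, beta-actin, went from 4706 to 3199 FPKM, GAPDH, a glycolytic enzyme, from 5419 to 4054, VIM from 2072 to 865, and the small heat shock protein HSPB1 from 1742 to 593. None of these 5 passed the slope test, and ACTB and GAPDH changed by less than 2-fold.

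**Figure D2:**
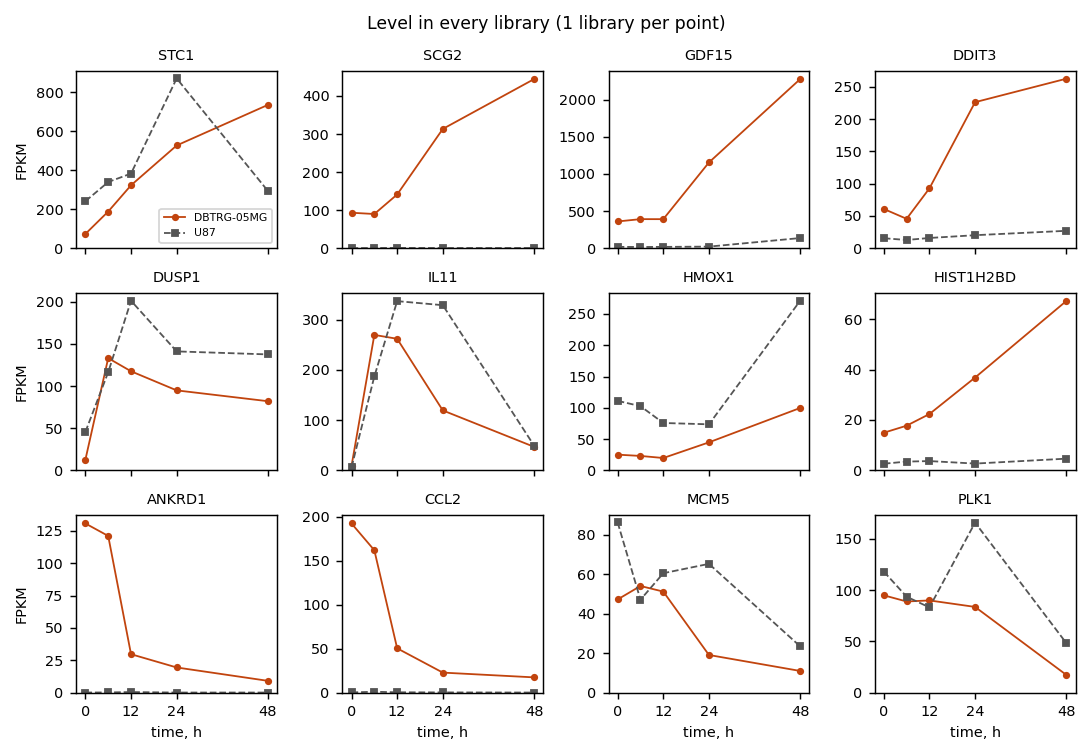
Level in FPKM (linear axis from 0) of 12 genes against time in hours, orange for DBTRG-05MG and grey for U87, 1 library per point. In DBTRG-05MG, STC1, SCG2, DDIT3 and HIST1H2BD end at their highest level, DUSP1 and IL11 peak at 6 h, and ANKRD1, CCL2, MCM5 and PLK1 end at their lowest.

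Genes of cell division made up a block of lower RNAs. Of 50 DNA replication genes, all past the filter, 44 were at least 2-fold lower at 48 h and none was higher, with a median of -1.56 beside 0.03 over all genes. The list medians at 6, 12 and 24 h were 0.04, 0.18 and -0.76. Of 58 mitotic genes, 53 were at least 2-fold lower and none higher, with a median of -1.79 after -0.04, 0.24 and -0.16. The replication median was thus lower by 24 h, while the mitotic median was near 0 at 24 h, though single mitotic genes such as ANLN and MKI67 were already lower then. The slope test, which looks for a straight course, called 1 replication gene falling (RPA2, adjusted p 0.0436) and no mitotic gene.

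Among the replication genes, MCM5, a subunit of the replicative helicase, stood at 47.2, 54.1, 51.2, 19.1 and 10.9 FPKM (-2.01). GINS2, which activates that helicase, stood at 16.4, 16.5, 17.8, 6.30 and 2.33 FPKM (-2.39). RRM2, the regulated subunit of ribonucleotide reductase, was highest at 12 h, at 93.98, 127, 159.9, 55.01 and 17.7 FPKM (-2.35). All 3 were lowest at 48 h. CDT1, a licensing factor, went from 17.6 to 3.39 FPKM, MCM4 from 40.5 to 9.11 and GINS1 from 9.12 to 1.51. The 6 members within 2-fold were ORC2 (0.17), RPA3 (-0.05), SLBP (-0.45), DUT (-0.69), PCNA (-0.92) and RFC4 (-0.97).

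Among the mitotic genes, MKI67, the proliferation marker Ki-67, stood at 79.9, 75.96, 69.4, 46.3 and 10.3 FPKM (-2.85). PLK1, a mitotic kinase, kept its level through 24 h, at 94.9, 88.9, 89.9, 83.6 and 17.2 FPKM (-2.40). ANLN, a scaffold of the cleavage furrow, stood at 81.6, 66.1, 69.6, 40.2 and 11.2 FPKM (-2.76). On the log2 scale their largest step lay between 24 and 48 h. CCNA2 (cyclin A2) went from 36.8 to 6.00 FPKM, KIF20A, a kinesin of cytokinesis, from 22.4 to 3.13, and CDCA3, which promotes mitotic entry, from 32.9 to 4.78. The 5 mitotic genes within 2-fold were CDC25B (0.12), BUB3 (-0.52), KIF14 (-0.94), NEK2 (-0.98) and SPC24 (-0.99).

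Regulators and chromatin factors were lower in part. Of 26 cell cycle regulators, 13 were at least 2-fold lower and none higher (median -1.05). MYBL2, a transcription factor that acts on mitotic promoters, stood at 52.3, 59.8, 45.3, 23.3 and 7.51 FPKM (-2.65), FOXM1, another, went from 81.3 to 15.5, and E2F1 from 24.97 to 8.06. CDKN1A, the CDK inhibitor p21, stood at 293, 271, 253, 349.9 and 438 FPKM (0.58), within 2-fold. Of 29 DNA repair genes 16 were at least 2-fold lower, and EXO1, an exonuclease of mismatch repair, fell from 11.04 to 1.31 FPKM (adjusted p 0.0472). RAD18, a ubiquitin ligase at stalled forks, also fell (-1.40, adjusted p 0.0453). Of 26 chromatin and lamina genes 12 were at least 2-fold lower. LMNB1, lamin B1, stood at 30.7, 33.6, 37.2, 17.6 and 4.93 FPKM (-2.42), whereas LMNA changed by -0.29. HELLS, a chromatin remodeller, fell from 5.42 to 0.716 FPKM (adjusted p 0.0456).

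The promoters of these 2 lists held the elements shown above in unequal shares, which are descriptions without a test. A CHR match stood in 35 of the 50 mitotic promoters found for 58 genes (70%) and in 2 of the 42 replication promoters found for 50 genes, beside 15.4% of all 27305 promoters in the table and 9.19% of those of genes past the filter, of which under 80% had a promoter. A CCAAT box stood in 70% of the mitotic and 50% of the replication promoters, beside 35.7% and 36.9%. TTTCGCGC stood in 11.9% and TTTGGCGC in 16.7% of the replication promoters, beside 0.546% and 0.659% of all and 0.949% and 1.19% of those past the filter. The same comparison over all genes at least 2-fold higher or lower, and over the ATF4 and NRF2 lists, is void, since under 80% of their genes had a promoter in the table.

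Histone RNAs stood on the other side. Of 18 histone genes past the filter, 10 were at least 2-fold higher and none lower, with a median of 1.03. HIST1H2BD, an H2B gene, rose in every step, at 14.9, 17.7, 22.3, 36.8 and 67.2 FPKM (2.10, adjusted p 0.0151). HIST1H1C, a linker histone gene, was high at 48 h, at 11.1, 12.1, 11.6, 16.1 and 53.5 FPKM (2.17). HIST1H2AC, an H2A gene, went from 14.7 to 64.8 FPKM. The libraries were selected for poly(A), which most replication-dependent histone RNAs lack, and histone genes share near-identical sequence, so these levels are uncertain.

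**Figure D3:**
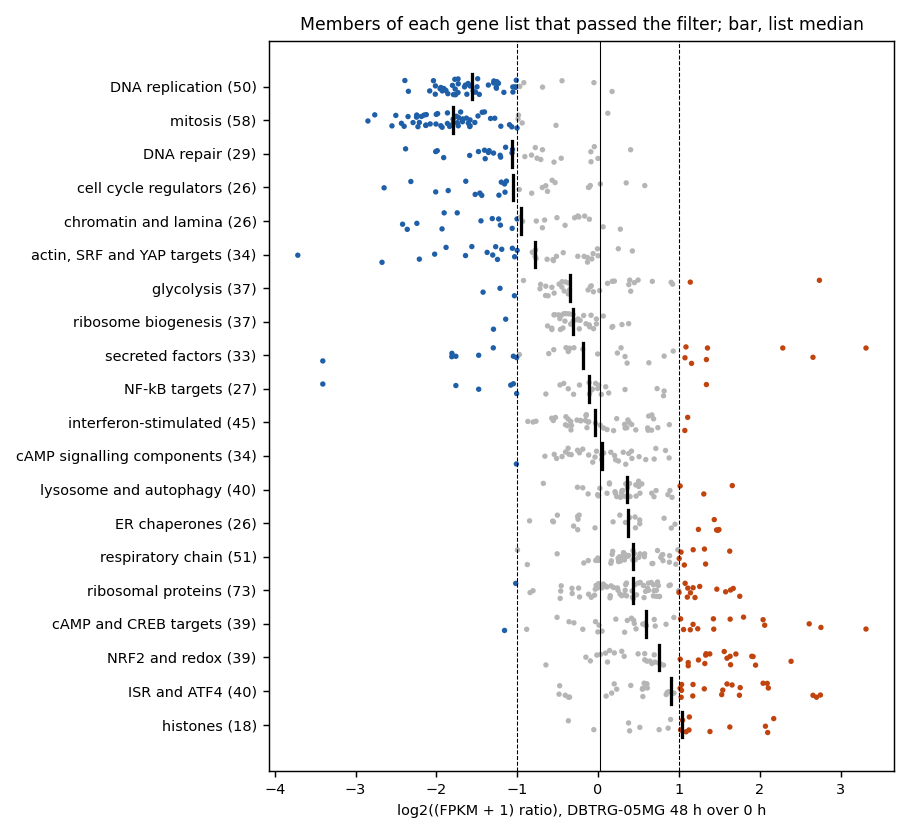
Change from 0 to 48 h, log2((FPKM + 1) ratio), of every list member that passed the filter (1 point per gene, number per list in parentheses). Black bars are list medians, dashed lines mark 2-fold, the solid line is the median of all genes, and orange and blue mark members at least 2-fold higher or lower. Medians run from -1.79 for mitosis to 1.03 for histones.

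Targets of cyclic AMP and CREB were higher early and in part still at the end. Of 39 such genes past the filter, 14 were at least 2-fold higher at 48 h and 1 was lower (CCND1, cyclin D1, -1.16). The list median was 1.05 at 6 h, 0.80 at 12 h, 0.82 at 24 h and 0.59 at 48 h. Members followed at least 3 courses. STC1 and DUSP4, a phosphatase of ERK, rose (44.6, 80.4, 117, 155 and 158 FPKM for DUSP4, adjusted p 0.0250). DUSP1, a MAP kinase phosphatase, was highest at 6 h and stayed high, at 12.6, 133, 118, 94.9 and 82.1 FPKM (2.61). RASD1, a RAS-related protein, held 1 level from 6 h on, at 0.516, 8.74, 7.83, 8.03 and 9.25 FPKM (2.76). The slope test passed neither of the last 2 (adjusted p 0.341 and 0.130), and their change lay in the first step.

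The third course was a return. NR4A1, an orphan nuclear receptor of the first wave, stood at 1.36, 12.95, 10.1, 11.8 and 5.34 FPKM. DIO2, the deiodinase that activates thyroid hormone, was back at its first level at 48 h, at 2.74, 19.5, 13.4, 7.26 and 2.77 FPKM (0.01). IL11, a cytokine of the IL-6 family, stood at 8.82, 269.9, 262, 119 and 46.8 FPKM and kept only part of its early gain (2.29). The endpoint shows none of the change of DIO2 and a part of that of NR4A1 and IL11. The phosphodiesterases, which break down cyclic AMP, were between these courses, PDE4B at 2.05, 11.6, 16.7, 16.6 and 11.7 FPKM (2.06) and PDE4D at 2.42, 7.87, 9.72, 12.3 and 8.22 FPKM (1.43). A full CRE stood in 4 of the 32 promoters found for the 39 genes (12.5%), beside 1.98% of all promoters, 3.38% of those of genes past the filter (under 80% of which had a promoter) and 5 of the 50 mitotic promoters (10%), a list that was lower. Counts this small cannot rank the shares of the cyclic AMP and mitotic lists.

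Of the signalling machinery itself, 34 genes for cyclases, protein kinase A, EPAC and CREB were measured. None was 2-fold higher and 1 was lower, counts near the 4.77% and 5.23% of all genes. The lower one was PRKACA, a catalytic subunit of protein kinase A, at 86.9, 69.7, 42.7, 44.2 and 42.6 FPKM (-1.01). The regulatory subunit PRKAR1A went the other way, at 30.8, 41.5, 65.1, 61.3 and 57.5 FPKM (0.88), and the list median was 0.04 beside 0.03 over all genes. PDE1C, a calmodulin-dependent phosphodiesterase outside that list, fell through 39.96, 42.3, 22.2, 13.4 and 9.52 FPKM (-1.96, adjusted p 0.00770).

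Stress genes were higher late in the course. Of 40 genes of the integrated stress response, which runs through the transcription factors ATF4 and DDIT3, 19 were at least 2-fold higher and none lower. The median was 0.08 at 6 h, 0.25 at 12 h, 0.83 at 24 h and 0.91 at 48 h. Of the 40, 5 rose by the slope test. DDIT3, which encodes CHOP, stood at 60.8, 45.5, 92.6, 226 and 262 FPKM (2.09, adjusted p 0.0184). TRIB3, a pseudokinase induced by CHOP, stood at 32.04, 34.6, 57.5, 157 and 141 FPKM (2.11, adjusted p 0.0173). CEBPB, a transcription factor, stood at 7.11, 8.59, 24.8, 44.6 and 51.8 FPKM (2.70, adjusted p 0.00721). All 3 were low at 0 and 6 h and high at 24 and 48 h. DDIT4, an inhibitor of mTORC1, rose from 17.3 to 122 FPKM (adjusted p 0.0173), as did ADM2, a peptide hormone, by 1.54 (adjusted p 0.0387). ATF3 was at 5.58, 13.03, 13.4, 19.5 and 26.1 FPKM (2.04, adjusted p 0.121).

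Amino acid transporters, in part the same genes, showed 3 of 18 at least 2-fold higher. SLC3A2, the heavy chain shared by several transporters, stood at 60.9, 72.6, 126, 174 and 207 FPKM (1.75), its partners SLC7A5 at 52.3, 156, 165, 208 and 167 (1.66) and SLC7A11, the cystine transporter, at 3.38, 5.93, 9.13, 14.6 and 12.2 (1.60). SLC7A5 had most of its gain by 6 h, the other 2 by 24 h. None passed the slope test, with adjusted p of 0.133, 0.286 and 0.151. Of 26 chaperones and folding factors of the endoplasmic reticulum, 5 were at least 2-fold higher, none lower, and 3 rose. HSPA5, the chaperone BiP, stood at 194, 174, 284, 493 and 537 FPKM (1.47, adjusted p 0.0325). HERPUD1, of the degradation machinery, rose from 44.96 to 129 (adjusted p 0.0265), and ERN1, the sensor IRE1, from 1.46 to 4.82 (adjusted p 0.0353). XBP1, the transcription factor whose RNA IRE1 splices, went from 22.8 to 65.4 FPKM (adjusted p 0.0716).

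Genes of the glutathione and thioredoxin systems and targets of NRF2, together the NRF2 list, had their highest median at 48 h. Of 39 measured, 17 were at least 2-fold higher and none lower (median 0.75, after 0.45 at 24 h). HMOX1, which degrades haem, stood at 25.1, 23.1, 19.7, 44.8 and 99.7 FPKM (1.95). NQO1, a quinone reductase, stood at 52.2, 49.4, 62.8, 79.8 and 172 FPKM (1.71). AKR1C1, an aldo-keto reductase, stood at 26.2, 19.98, 32.7, 77.6 and 142 FPKM (2.39), though AKR1C1, AKR1C2 and AKR1C3 are near-identical copies and their split is uncertain. In all 3 genes the 48 h level was the highest of the course. CBR1, a carbonyl reductase (1.24, adjusted p 0.0449), and ME1, the malic enzyme (1.12, adjusted p 0.0449), rose, and no other member passed. SQSTM1, the autophagy receptor p62, went from 169.7 to 539 FPKM. It was 1 of 3 of 40 lysosome and autophagy genes at least 2-fold higher, a count close to the 4.77% of all genes.

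Genes of the actin cytoskeleton and targets of SRF and YAP were lower. Of 34 measured, 15 were at least 2-fold lower and none higher, with a median of 0.26 at 6 h and -0.78 at 48 h. ANKRD1, CNN3 and AMOTL2 fell. CNN3, the actin-binding calponin 3, stood at 127, 108, 68.7, 41.96 and 30.5 FPKM (-2.02, adjusted p 0.00414). AMOTL2, a partner of YAP, stood at 40.01, 45.99, 23.3, 18.9 and 7.86 FPKM (-2.21, adjusted p 0.0422). The matricellular genes CYR61 (29.2, 36.96, 9.49, 7.38 and 3.73 FPKM) and CTGF (145, 204, 46.2, 36.6 and 38.8 FPKM), both known YAP targets, were higher at 6 h than at 0 h and low from 12 h on. TPM1, a tropomyosin, and THBS1 had the same order of a high 6 h and a low 48 h library, at 76.4, 129, 99.1, 33.8 and 23.8 FPKM for TPM1.

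Single matrix genes went both ways. Of 34 collagens and matrix genes past the filter, 2 were at least 2-fold higher, near the 4.77% of all genes, and 5 lower. SPARC, a collagen-binding glycoprotein, rose at 329.8, 295, 366, 553 and 1217 FPKM (1.88, adjusted p 0.0404). EFEMP1, fibulin-3, fell at 297, 331, 254, 143 and 70.2 FPKM (-2.07, adjusted p 0.0234). LOXL2, a collagen crosslinker, fell at 143, 122, 80.04, 59.4 and 49.9 FPKM (-1.50, adjusted p 0.0151). Of 30 proteases and inhibitors 7 were at least 2-fold higher and 4 lower. MMP10, a stromelysin, rose from 2.11 to 18.97 FPKM (adjusted p 0.0129), whereas PLAT, the tissue plasminogen activator, went from 341 to 134 (adjusted p 0.0998).

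Secreted signals were split. Of 33 cytokines and growth factors past the filter, 8 were at least 2-fold higher and 8 lower. IL6, the cytokine named in the title of the study, was highest at 6 h and still above its first level at 48 h, at 2.95, 19.9, 14.6, 15.2 and 9.01 FPKM (1.34, adjusted p 0.738). CXCL1, a neutrophil chemokine, stood at 243, 179.9, 124, 89.6 and 86.5 FPKM (-1.48). CSF2, the growth factor GM-CSF, fell at 11.5, 11.6, 9.03, 3.98 and 2.69 FPKM (-1.76, adjusted p 0.0206), as did CCL2. IL1B went from 6.02 to 2.40 FPKM, CSF1, the macrophage growth factor, from 34.3 to 9.09, and TGFA, a ligand of EGFR, from 170.4 to 381. Of 27 NF-kB targets 6 were at least 2-fold lower and 1, IL6, higher. Of 45 interferon-stimulated genes 2 were higher, RSAD2 (1.11) and DDX60 (1.07), near the 4.77% of all genes, and none lower.

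Genes of glycolysis had a median of -0.35, and of 37 genes 2 were at least 2-fold higher and 3 lower, counts near the shares of all genes. SLC2A1, the basal glucose transporter GLUT1, stood at 133, 129, 99.3, 88.3 and 56.7 FPKM (-1.21) and SLC2A3, the high-affinity GLUT3, at 20.4, 13.8, 18.9, 31.1 and 46.3 FPKM (1.14). The first was lowest and the second highest at 48 h. PDK1 (-1.42) and PDK4 (2.74), kinases that hold back pyruvate dehydrogenase, moved apart, and the aldolase ALDOC was lower (-1.03). HK2, hexokinase 2, went from 8.99 to 5.11 FPKM and LDHA, lactate dehydrogenase A, from 1095 to 784. The hypoxia marker CA9, a carbonic anhydrase, went from 6.82 to 1.09 FPKM, and CA12, another, from 18.01 to 48.00. None of the genes named in this group passed the slope test, PDK4 with an adjusted p of 0.0501.

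Genes of the respiratory chain and the ribosome were more often above than below their 0 h level. Of 51 respiratory chain subunits 7 were at least 2-fold higher and none lower (median 0.43), and of 73 ribosomal protein genes 13 higher and 1 lower (median 0.44). NDUFA1, of complex I, stood at 34.1, 38.2, 80.8, 66.1 and 108 FPKM (1.63), and RPS27, of the small ribosomal subunit, at 298, 369.6, 579, 532 and 1007 FPKM (1.75). RPL23A, of the large subunit, rose (adjusted p 0.0413) and was the 1 member of both lists to pass. Ribosomal protein genes have many near-identical pseudogene copies, so their values are uncertain. Transcript length moved with these results: with genes cut into 5 bins by their longest transcript, 9.73% of the shortest bin were at least 2-fold higher and 6.57% lower, and 2.21% and 3.85% of the longest bin. With 5 bins by GC of that transcript, the median change at 12 h was 0.14 in the lowest bin and -0.22 in the highest. At 24 h these medians were 0.18 and -0.05, and at 48 h 0.07 and 0.01. The part of length in the results on ribosomal, respiratory and histone genes was not tested, nor that of GC in the 12 and 24 h levels. Genes that build ribosomes had a median of -0.31, and LYAR (-1.29) and MYC (-1.14) were the 2 of 37 past 2-fold, both lower and near the 5.23% of all genes.

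Markers of neural cells moved in single genes. Of 9 astrocyte markers past the filter of 15 listed, 3 were at least 2-fold lower, and GJA1, the gap junction protein connexin 43, fell at 28.3, 34.6, 20.4, 12.6 and 10.4 FPKM (adjusted p 0.0381). FABP7, a fatty acid binding protein of radial glia, fell at 25.7, 20.9, 14.9, 12.8 and 9.72 FPKM (-1.32, adjusted p 0.0216). The glioma stem factor POU3F2 fell at 12.9, 10.6, 8.52, 5.70 and 5.43 FPKM (-1.11, adjusted p 0.0261), whereas SOX2 changed by -0.13. Of the neuronal markers, STMN2, a tubulin-binding growth protein, rose at 0.880, 0.714, 1.10, 2.06 and 6.00 FPKM (1.90, adjusted p 0.0337), SYT1 went from 1.23 to 3.94 FPKM and TUBB3 changed by -0.15. MYRF, a myelin gene regulator, rose from 2.58 to 7.27 FPKM (adjusted p 0.0473), while MOG and SOX10 of the same list were at 0 in both libraries. CLDN11, of myelin junctions, went from 7.69 to 2.44 FPKM.

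The same 12424 genes, kept by their DBTRG-05MG mean alone, were read in U87, and 10682 of them averaged 1 FPKM or more there. Genes expressed in U87 only were left out, and genes low in U87 had little room to change on the (FPKM + 1) scale. The U87 shares, the overlaps and the correlation below depend on this choice. At 48 h, 230 genes were at least 2-fold higher in U87 (1.85%) and 509 lower (4.1%). Higher in both lines were 69 genes, 11.6% of the DBTRG-05MG and 30% of the U87 genes, and lower in both were 199, 30.6% and 39.1%. Another 20 of the 593 higher in DBTRG-05MG were lower in U87, near the 4.1% of all genes. The reverse held for 13 of the 650 lower genes, near the 1.85% of all genes. Of the DBTRG-05MG genes, 155 of the 593 higher and 96 of the 650 lower had a mean under 1 FPKM in U87. Across the 12424 genes, which are not independent replicates, the changes at 48 h in the lines had a Pearson r of 0.37.

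**Figure D4:**
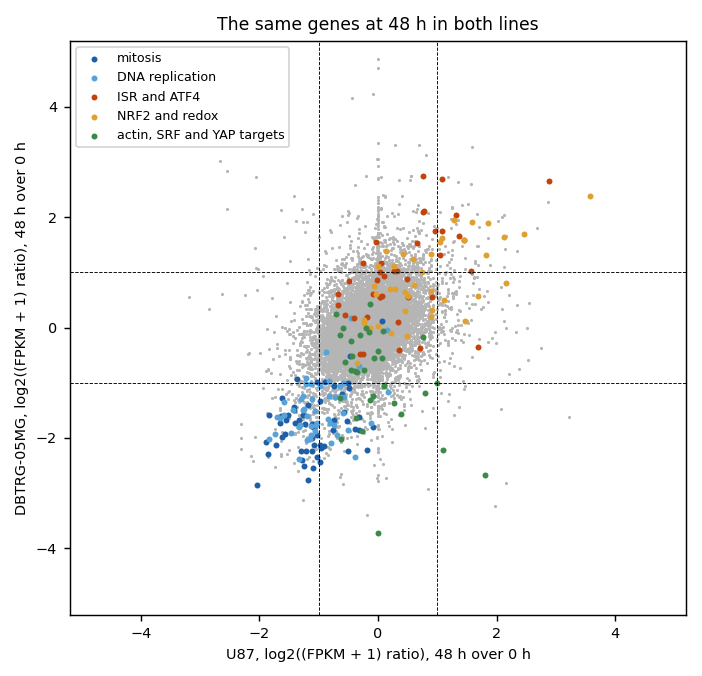
Change from 0 to 48 h, log2((FPKM + 1) ratio), in U87 (horizontal) and DBTRG-05MG (vertical), 1 point per gene, dashed lines at 2-fold. Members of 5 lists are coloured, and most mitotic and replication genes lie below 0 on both axes, while ANKRD1 (lowest green point) was at 0 in U87 at both times.

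Set side by side, the mitotic list had a median of -1.79 in DBTRG-05MG and -1.11 in U87, and the replication list -1.56 and -1.07. Over all genes the median was 0.03 in DBTRG-05MG and -0.13 in U87, beside which the list medians are to be read. List members too were kept by their DBTRG-05MG mean alone, and some may be low in U87. The NRF2 list had 0.75 and 0.60, the integrated stress response 0.91 and 0.33, and the actin, SRF and YAP list -0.78 and -0.15. Histones had 1.03 in DBTRG-05MG and 0.00 in U87. Of the 33 secreted factors 12 were at least 2-fold higher in U87 and 1 lower. CYR61 went from 17.1 to 62.2 FPKM in U87, against 29.2 to 3.73 in DBTRG-05MG, but the difference of its slopes did not pass the test (adjusted p 0.191). GDF15 changed by 2.66 and 2.89 in the 2 lines, MKI67 by -2.85 and -2.04.

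**Figure D5:**
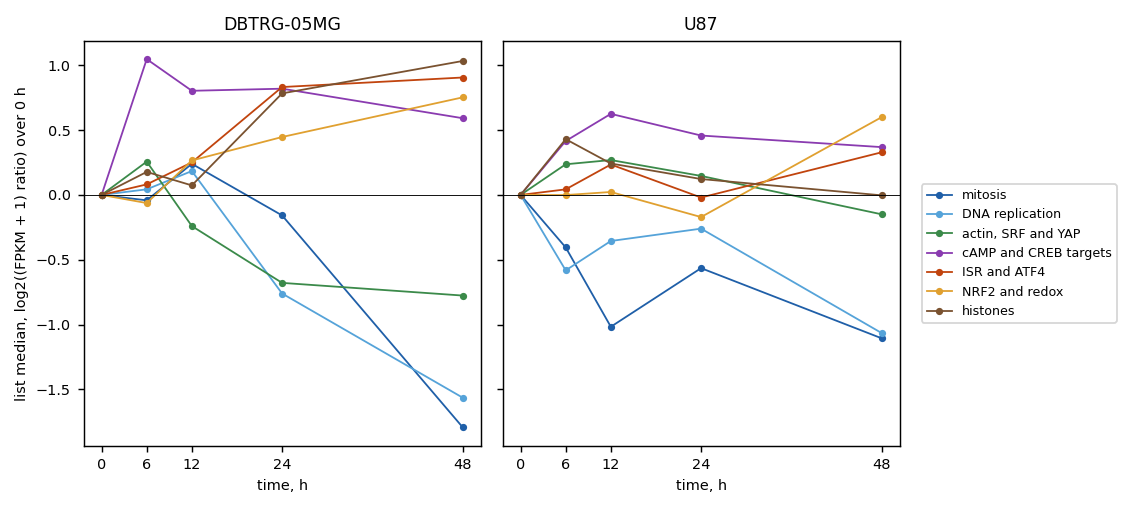
Median log2((FPKM + 1) ratio) over the 0 h library of each line, for 7 lists against time in hours, DBTRG-05MG left and U87 right. The 4 later points of a line share its 0 h library; in DBTRG-05MG the mitotic median is -0.16 at 24 h and -1.79 at 48 h.

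The limma test of the difference between the slopes passed 8 of 12424 genes (0.0644%), 5 with the higher slope in DBTRG-05MG and 3 with the lower, against 1723 with a p under 0.05 before adjustment. Of the 8, SLC18A1, TGM3, SCARA5, CACNG4, ZNF488 and ANKRD1 were at or near 0 in every U87 library and entered the test only through their level in DBTRG-05MG. Their U87 slope and scatter are then close to 0 by absence, so the test says nothing about a difference in response, and only their levels are given. Among the 10682 genes averaging 1 FPKM or more in both lines, a set chosen after seeing the data, limma passed 0 genes, against 1367 with a p under 0.05 before adjustment. TGM3, a transglutaminase (chr20:2296001-2341078), stood at 0.0421, 0.369, 1.63, 3.99 and 6.94 FPKM in DBTRG-05MG, higher in every library than in the one before. CACNG4, a calcium channel subunit (chr17:66964910-67033398), was lower in every library than in the one before, at 7.72, 5.31, 3.63, 1.85 and 0.831 FPKM.

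The other 2 were expressed in both lines, with slopes of opposite sign, and both missed the threshold among the genes expressed in each line (adjusted p 0.108 for both). In DBTRG-05MG RASL11A (chr13:27270327-27273690) went from 2.41 to 60.3 FPKM, while U87 had 6.46 at 0 h and 4.49 at 48 h (adjusted p 0.0498 over all genes). SNHG9, a small nucleolar RNA host gene (chr16:1964959-1965509), went from 2.42 to 10.4 and from 7.20 to 2.51 (adjusted p 0.0453). Short of the threshold in both fits, LCP1, an actin bundler, went from 5.15 to 18.2 FPKM and from 16.8 to 4.91 (adjusted p 0.0778), and PLK2, a stress-induced kinase, from 114 to 41.4 and from 25.5 to 67.1 (adjusted p 0.0778); neither was called. No mitotic, replication, ATF4 or NRF2 gene was called as different between the lines, which at 1 library per point does not show that they moved alike.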

How the data were processed

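Poly(A) RNA of DBTRG-05MG and U87 was sequenced at 5 times of dbcAMP, with 1 library per line and time. The authors deposited 1 table, read here as FPKM from its values, in which 0.002 stands for 0; the submitters' processing notes name HISAT, Bowtie2, RSEM and hg38. The series description gives another dose unit and a longer treatment than the labels, which were followed. Absolute depth is unknown. The endpoint is log2((FPKM + 1) ratio), for genes whose DBTRG-05MG libraries averaged 1 FPKM or more, with 2-fold as the size threshold.

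The slope over the rank of time and its difference between the lines were tested with limma 3.58.1 in R 4.3.3, on all 10 libraries, with an intercept and a slope per line, empirical Bayes moderation with a mean-variance trend and Benjamini-Hochberg adjustment over 12424 genes (threshold 0.05). The fit was tested on simulated data. Alternatives were other pseudocounts, filters, scalings, thresholds, time in hours and leaving out each library, and for the slope difference 2 chosen after seeing the data: genes expressed in each line, and lines matched by time point.

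Members and the 45 gene lists were chosen with earlier results of these data known, so list counts are descriptions. Named genes are the 20 highest and 20 lowest changes among genes reaching 10 FPKM, the 10 largest FPKM gains and losses, the 6 largest changes per list, the 10 smallest p-values of the slope difference per direction, genes at the filter, and a preset group. Others named (ORC2, RPA3, SLBP, DUT, PCNA, RFC4, CDC25B, BUB3, KIF14, NEK2, SPC24, LMNA, SOX2, CD68, FCER1G, ESAM, NAV3, RPA2, RAD18, ADM2, CBR1, ME1 and RPL23A, and markers at or near 0) were chosen after their values were seen. The 25 symbols turned into dates were not named. Positions are from GENCODE release 29 (GRCh38), promoters from RefSeq (GRCh38.p14). Python 3.11.15 with pandas 2.3.3, numpy 2.4.6 and matplotlib 3.10.9 served for the rest.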

Additional observations from a re-analysis of the deposited data

Results flagged for a closer look

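The slope over the rank of time passed the limma test of a difference between the lines in 8 genes. For 6 of them the test is void as a comparison of responses, because they are at or near 0 in U87 and entered only through DBTRG-05MG: SLC18A1, TGM3 and SCARA5 were at 0 in all 5 U87 libraries, and CACNG4, ZNF488 and ANKRD1 reached at most 0.0298, 0.0602 and 0.363 FPKM there. Their slopes minus those of U87 were 1.20 log2 per step for SLC18A1, 0.77 for TGM3, 0.66 for SCARA5, -0.99 for ANKRD1, -0.62 for ZNF488 and -0.56 for CACNG4, in effect the slopes of DBTRG-05MG. The other 2, RASL11A (1.16) and SNHG9 (0.84), were expressed in both lines. They missed the threshold when only genes averaging 1 FPKM or more in both lines were tested (adjusted p 0.108 for both) and when the lines were matched by time point (0.128 and 0.0986), and each in 7 of the 10 fits that left out 1 library.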

How the results depend on the processing

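Alternatives were recomputed one at a time. Scaling moved the median of all genes by between -0.03 and 0.02 log2 and the share of higher genes among those past 2-fold from 47.7% to between 43.7% and 49.8%. The 593 higher and 650 lower genes became 248 and 297 with a pseudocount of 5 FPKM and 78 and 87 at a threshold of 4-fold, and the higher became 374 at a mean of at least 5 FPKM. List medians kept their sign where they were 0.25 or more; those that moved by more than the residual SD of 0.25 were, with a pseudocount of 5, DNA replication (-1.08), mitosis (-1.39), cell cycle regulators (-0.70), DNA repair (-0.64) and histones (0.48). With 0.1 they were histones (1.30) and secretory granule genes (0.90), at a mean of at least 5 FPKM histones (1.51) and prostaglandin genes (0.74), and without a filter astrocyte (-0.076) and oligodendrocyte (-0.0027) markers.

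The 129 rising and 89 falling genes became 16 and 7 with a pseudocount of 0.1, 233 and 209 in the DBTRG-05MG libraries alone, 70 rising at a mean of at least 5 FPKM, and 291 falling with time in hours. Leaving out 1 library gave 24 to 249 rising and 8 to 171 falling genes. The counts moved by over 1.5 times without DBTRG-05MG 6 h (50 and 33), 24 h (39 and 16) or 48 h (24 and 8), without U87 6 h (79 and 53), 12 h (50 and 27) or 24 h (249 and 171), and for falling genes without U87 48 h (143). The 5 and 3 genes with differing slopes became 2 and 0 with a pseudocount of 0.1, 3 and 1 at a mean of at least 5 FPKM, 2 and 1 with upper quartile scaling, 11 and 6 with time in hours, and 3 and 0 without the mean-variance trend. In alternatives chosen after seeing the data they became 0 and 0 among genes averaging 1 FPKM or more in both lines (1367 with a p under 0.05 before adjustment), and 2 and 0 with the lines matched by time point, as the slope of the 5 within-time differences (1689). The lower ones became 1 without a filter and 7 with median centring. Leaving out 1 library gave 2 to 35 and 0 to 21, the most without DBTRG-05MG 0 h (35 and 21) or U87 0 h (32 and 10). Of 62 named or listed genes with a called slope, 7 were past the threshold in every setting that gave a value. CACNG4, SCARA5, SLC18A1, TGM3 and ZNF488 among them were at or near 0 in every U87 library. The causes were not tested.

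Promoter shares among genes past the filter, of which under 80% had a promoter, were 3.38% for the full CRE, 0.949% and 1.19% for the E2F sites, 9.19% for CHR, 36.9% for CCAAT, 1.63% for CARE and 15.3% for the antioxidant core; in the whole table they were 1.98%, 0.546%, 0.659%, 15.4%, 35.7%, 3.67% and 13.6%. The labels give no replicate numbers to pair by. Genes at 0 are not detectable at this depth, and fold changes depend on the pseudocount, most of all near 1 FPKM. Of 296 genes picked by the naming rule, 133 changed size by more than the residual SD with a pseudocount of 5 FPKM. With 0.1 FPKM 70 did, and with the scalings none.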
